A study of Mus musculus with 6 samples.

Results

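Glucose uptake and pyruvate dehydrogenase control in muscle were followed through 10 genes, taken by symbol from the 52636 genes of the deposited count tables. They encode proteins of insulin-responsive glucose uptake, glucose phosphorylation, glycogen storage and the switch that sets the activity of pyruvate dehydrogenase, and genes of this kind are known to be under clock control in muscle. RNA came from tibialis anterior (TA) muscle of male C57BL/6 mice with floxed *Bmal1* and HSA-MCM, a tamoxifen-inducible Cre recombinase driven by the human skeletal actin promoter. At 12 to 16 weeks of age, 3 mice were injected on 5 days with tamoxifen at 2 mg daily (iMS*Bmal1*-/-), and 3 with the vehicle alone, sunflower seed oil holding 15% ethanol (iMS*Bmal1*+/+). Muscles were taken 5 weeks later, and the labels give no time of day. Tamoxifen was given to iMS*Bmal1*-/- mice only, so its effect and that of the genotype cannot be told apart, and recombination is directed to skeletal muscle fibers. The whole muscle was pulverized, and in such bulk samples fewer cells of a type and less RNA per cell cannot be told apart.

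Counts on genes summed to 2091912, 1997203 and 2716079 per iMS*Bmal1*+/+ library and to 2403438, 1616290 and 2068657 per iMS*Bmal1*-/- library. A count of 0 allows up to 3 counts, or 1.10 to 1.86 CPM (counts scaled to the library total) in these libraries, which covers counting error only. The target gene, *Bmal1* (*Arntl*), had 5, 4 and 11 counts in iMS*Bmal1*+/+ against 13, 5 and 5 in iMS*Bmal1*-/- muscle, too few to show the deletion. The tissue label was set against markers of fast fibers, whose counts differed widely. *Myh4*, the most abundant, had 5743 counts or more in every library. *Pvalb* had only 57 to 143, fewer than the blood gene *Alas2* with 285 to 483. The strand setting of the counting is not given, and abundant muscle genes had far fewer counts here than the genes facing them (a facing gene is on the opposite strand with overlapping exons). Counts and levels given for the 10 genes are therefore deposited counts on their annotated strand, and they may not be their mRNA.

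Insulin binds its receptor on the fiber and, through AKT, leads to phosphorylation of the Rab GTPase-activating proteins TBC1D1 and TBC1D4, which releases vesicles carrying the glucose transporter GLUT4 to the surface. Contraction reaches TBC1D1 through AMPK. Inside the fiber, hexokinase traps glucose as glucose-6-phosphate, which is stored as glycogen or broken down to pyruvate. Pyruvate dehydrogenase then commits pyruvate to oxidation, and it is switched off when kinases phosphorylate its E1 subunit and switched on when a phosphatase removes the phosphate.

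The 10 genes had few counts. Together they held 282, 319 and 394 counts in the iMS*Bmal1*+/+ libraries against 360, 235 and 299 in iMS*Bmal1*-/-, and this was 0.0147% of all counts. Of the 10, 8 passed the filter on low counts, and *Tbc1d4* and *Insr* did not. The filter asks for 4.81 CPM (scaled to the library total) in 3 libraries, a level that 6 of the 8 reached in every library. *Slc2a4* reached it in 2 libraries of each genotype, and *Pdk4* in 2 iMS*Bmal1*+/+ and 3 iMS*Bmal1*-/- libraries, so that *Pdk4* passed through the genotype in which it is higher. With edgeR's quasi-likelihood test and Benjamini-Hochberg adjustment over all 6831 genes tested, 0 of the 8 had an adjusted p under 0.05, where 1.83% of all tested genes did (125, with 52 higher and 73 lower values in iMS*Bmal1*-/- muscle). An unadjusted p under 0.05 was found for 4 of the 8, or 3 of 7 without *Pdk4*, against 11.9% of all tested genes. DESeq2 and limma also placed 0 of the 8 past the threshold, where 118 and 122 of all tested genes were past it. In CPM, 4 of the 8 had genotypes that did not overlap, again 3 of 7 without *Pdk4*, against 17.3% of all tested genes. Their median log2 fold change (iMS*Bmal1*-/- over iMS*Bmal1*+/+) was -0.11 (-0.15 without *Pdk4*), with 3 above 0 and 5 below, and the median over all tested genes was -0.00087. Of all tested genes, 66 rather than 125 were past the threshold when iMS*Bmal1*-/- replicate 1 was left out, and 60 when it was iMS*Bmal1*-/- replicate 2. The number was 219 with no filter on low counts and 220 with the replicate number as a block.

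Of the 4 kinases that switch off pyruvate dehydrogenase, *Pdk4* and *Pdk2* had enough counts to be tested, and neither was past the threshold. For *Pdk1* no library held more than 4 counts, and for *Pdk3* each held 0. *Pdk4*, which encodes the kinase induced by fasting and fatty acids, had 14, 11 and 10 counts in iMS*Bmal1*+/+ against 35, 16 and 25 in iMS*Bmal1*-/- libraries. After scaling to library size every iMS*Bmal1*-/- library lay above every iMS*Bmal1*+/+ library, and the mean was 5.48 ± 1.59 CPM (SD, n = 3) in iMS*Bmal1*+/+ against 12.2 ± 2.84 (SD, n = 3) in iMS*Bmal1*-/- muscle. This is a log2 fold change of 1.20 (standard error 0.35, 95% interval 0.46 to 1.93, edgeR adjusted p = 0.103), larger than the spread between replicates but not past the threshold. *Pdk2*, the kinase isoform most broadly expressed across tissues, had 16, 29 and 38 counts in iMS*Bmal1*+/+ against 53, 42 and 38 in iMS*Bmal1*-/- libraries. Scaled to library size, the genotypes did not overlap here either, with iMS*Bmal1*+/+ replicate 1 the lowest library. The means were 12.5 ± 3.90 CPM (SD, n = 3) and 22.1 ± 3.61 (SD, n = 3), and the log2 fold change came to 0.81 (standard error 0.27, 95% interval 0.24 to 1.38, edgeR adjusted p = 0.173).

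A phosphatase opposes these kinases. *Pdp1*, which encodes a catalytic subunit of it, had 116, 103 and 141 counts in iMS*Bmal1*+/+ against 107, 62 and 76 in iMS*Bmal1*-/- libraries, the most counts of the 10 genes in every library. Every iMS*Bmal1*-/- library lay below every iMS*Bmal1*+/+ library in CPM, at 54.8 ± 2.51 (SD, n = 3) in iMS*Bmal1*+/+ against 40.0 ± 5.72 (SD, n = 3) in iMS*Bmal1*-/- muscle. The difference, a log2 fold change of -0.45 (standard error 0.16, 95% interval -0.79 to -0.10, edgeR adjusted p = 0.232), was not past the threshold. The substrate of these enzymes is encoded by *Pdha1*, the E1 alpha subunit, which had 24, 33 and 32 counts in iMS*Bmal1*+/+ against 24, 22 and 28 in iMS*Bmal1*-/- libraries. These ranges overlapped, and the log2 fold change of -0.15 (standard error 0.28, edgeR adjusted p = 0.905) did not exceed the spread between replicates. It turned to 0.02 without iMS*Bmal1*+/+ replicate 2.

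On the uptake side, *Slc2a4*, the gene of GLUT4, had 16, 12 and 13 counts in iMS*Bmal1*+/+ against 8, 13 and 15 in iMS*Bmal1*-/- libraries. In CPM iMS*Bmal1*-/- replicate 1 was the lowest and iMS*Bmal1*+/+ replicate 1 the highest, with the other 4 libraries between them. The log2 fold change was -0.06 (standard error 0.41, 95% interval -0.93 to 0.80), an interval that holds both a decrease and an increase of more than 1.5 times. *Tbc1d1* had 22, 31 and 46 counts in iMS*Bmal1*+/+ against 24, 14 and 21 in iMS*Bmal1*-/- libraries. In CPM the genotypes did not overlap, at 14.8 ± 3.42 (SD, n = 3) and 9.61 ± 1.09 (SD, n = 3), and the log2 fold change was -0.62 (standard error 0.29, edgeR adjusted p = 0.416). Its relative *Tbc1d4* had at most 2 counts in any library, at or under the floor, so no fold is given. The insulin receptor gene *Insr* had 6, 5 and 8 counts in iMS*Bmal1*+/+ against 13, 8 and 6 in iMS*Bmal1*-/- libraries, too few to be tested.

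After uptake, hexokinase II phosphorylates glucose. Its gene *Hk2* had 18, 41 and 35 counts in iMS*Bmal1*+/+ against 26, 22 and 28 in iMS*Bmal1*-/- libraries, with the iMS*Bmal1*-/- values inside the wide iMS*Bmal1*+/+ range. The log2 fold change was -0.19 (standard error 0.31, edgeR adjusted p = 0.880), and it was 0.15 without iMS*Bmal1*+/+ replicate 2. *Gys1*, the muscle glycogen synthase, had 49, 54 and 71 counts in iMS*Bmal1*+/+ against 70, 36 and 60 in iMS*Bmal1*-/- libraries, and these overlapped. Its log2 fold change was 0.04 (standard error 0.20, 95% interval -0.39 to 0.47), and leaving out single libraries gave values from -0.07 to 0.17.

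**Figure D1:**
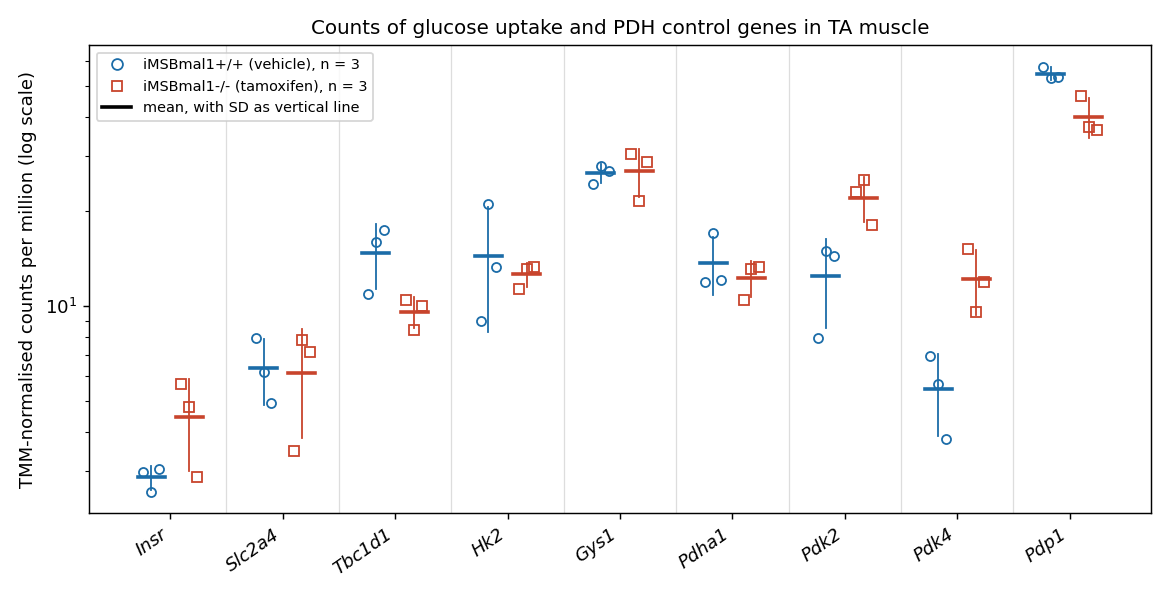
TMM-normalized CPM on a log axis for 9 of the 10 genes in each library of iMS*Bmal1*+/+ (circles) and iMS*Bmal1*-/- (squares) muscle, with the mean as a bar and the SD as a vertical line. *Tbc1d4* is left out for its near-zero counts. *Pdk2* and *Pdk4* have all 3 iMS*Bmal1*-/- libraries above the iMS*Bmal1*+/+ libraries, and *Tbc1d1* and *Pdp1* have them below.

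The deposited counts were also scaled per kilobase of exon. They may not be mRNA of these genes, so the order that follows is one of counts and not of expression. On this scale *Pdp1* was the highest of the 10 in iMS*Bmal1*+/+ muscle at 12.2 ± 0.557 CPM per kb (SD, n = 3). It was followed by *Gys1* at 5.51 ± 0.380 (SD, n = 3) and *Pdk2* at 3.94 ± 1.23 CPM per kb (SD, n = 3), and the libraries of these 3 genes did not overlap. From *Pdk2* down through *Pdha1*, *Hk2*, *Tbc1d1* and *Slc2a4* to *Pdk4* (1.56 ± 0.454 CPM per kb, SD, n = 3), the libraries of each gene overlapped those of the next. *Insr*, at 0.209 ± 0.0181 CPM per kb (SD, n = 3), was lower than *Pdk4* without overlap. *Tbc1d4*, at 0.0216 ± 0.0374 (SD, n = 3), cannot be placed below *Insr*, since a count of 0 allows up to 3. In iMS*Bmal1*-/- muscle the order began with *Pdp1* (8.87 ± 1.27 CPM per kb, SD, n = 3), *Pdk2* (6.99 ± 1.14), *Gys1* (5.61 ± 0.980), *Pdk4* (3.49 ± 0.808) and *Pdha1* (3.30 ± 0.437). There *Pdk2* and *Gys1* overlapped, as did *Pdk4* and *Pdha1*, so that neither order is set beyond the spread of the libraries.

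Because the strand matters for these counts, the share of a pair's counts that lay on the muscle gene was taken in each library. For the creatine kinase gene *Ckm* beside *A930016O22Rik* it was 0.762, 0.940 and 0.655% in iMS*Bmal1*+/+ against 0.924, 0.928 and 1.05% in iMS*Bmal1*-/- libraries. For *Atp2a1* beside *Rabep2* it was 0.887, 1.13 and 0.851% in iMS*Bmal1*+/+ against 1.08, 1.29 and 1.49% in iMS*Bmal1*-/- libraries. These shares were higher on average in iMS*Bmal1*-/- muscle, as were the values of *Pdk4* and *Pdk2*, and their part in those values was not tested. The myosin gene *Myh1* held 3.71, 4.42 and 4.32% of its counts with *Myhas* in iMS*Bmal1*+/+ against 5.55, 6.47 and 7.14% in iMS*Bmal1*-/- libraries. In this pair the counts of *Myhas* were lower in iMS*Bmal1*-/- muscle (log2 fold change -0.60, edgeR adjusted p = 0.0447), while *Myh1* was at 0.06. *Myhas* was past the threshold under 4 of 12 alternatives (range of adjusted p 4.15e-09 to 0.229), and not when iMS*Bmal1*+/+ replicate 1 or 2 was left out (0.151 and 0.122) or iMS*Bmal1*-/- replicate 1, 2 or 3 (0.119, 0.0879 and 0.229).

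Fast fiber markers had values in the same direction. All 10 were tested and had log2 fold changes above 0, with a median of 0.44, although that of *Myh1* (0.06) turned to -0.09 when iMS*Bmal1*+/+ replicate 3 was left out and to -0.01 without iMS*Bmal1*-/- replicate 2. Of these, 2 rose (0.761% of all tested genes were called higher), the fast light chain gene *Mylpf* (log2 fold change 0.85, edgeR adjusted p = 0.00241) and the calcium buffer gene *Pvalb* (0.90, edgeR adjusted p = 0.00700). With the replicate number as a block, *Acta1*, *Ckm*, *Tnnt3*, *Tnni2* and *Tnnc2* also passed (edgeR adjusted p 0.00493 to 0.0382), although the labels do not say what these numbers mark. The 10 summed to 8214, 10618 and 9358 CPM in iMS*Bmal1*+/+ against 11180, 11560 and 13302 in iMS*Bmal1*-/- libraries, *Myh4* being the most abundant, and their part in the values of *Pdk4* and *Pdk2* was not tested.

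Of 39 markers of slow fibers and of other cells, 9 were tested, and 0 of the 9 were past the threshold by edgeR, DESeq2 or limma. By edgeR 1 of them, *Csf1r*, had an unadjusted p under 0.05, as did 11.9% of all tested genes. Adipocyte genes, of which *Lep* was at 0 and 5 of 7 had at most 3 counts in any library, summed to 16, 20 and 34 counts in iMS*Bmal1*+/+ against 23, 21 and 22 in iMS*Bmal1*-/- libraries, with *Fabp4* the most abundant. Blood genes summed to 152, 167 and 183 CPM in iMS*Bmal1*+/+ against 213, 173 and 165 in iMS*Bmal1*-/- libraries, nearly all on *Alas2*, while the 4 globin genes had at most 3 counts each. Macrophage genes summed to 80.1, 83.6 and 55.8 CPM in iMS*Bmal1*+/+ against 59.6, 48.5 and 62.0 in iMS*Bmal1*-/- libraries, most of it on *Csf1r*, with *Adgre1* and *Cd14* at 0. *Cd68* went the other way without overlap in CPM, with 6, 4 and 3 counts in iMS*Bmal1*+/+ against 7, 6 and 10 in iMS*Bmal1*-/- libraries. These were too few to be tested. Endothelial genes, led by *Tek*, had sums from 39.1 to 72.5 CPM, and fibroblast genes, led by *Col3a1*, from 19.0 to 47.9. Nerve genes, led by *Pmp22*, summed to at most 8.70 CPM, and 0 of 5 were tested. Of the 7 slow fiber genes 1 was tested, *Atp2a2*, with a log2 fold change of 0.01, and their sums ran from 34.8 to 49.7 CPM.

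Each of the 10 genes was checked for a gene on the opposite strand. With the strand setting unknown, counts on such a gene may be RNA of the gene on the other strand, and which of these they are cannot be told apart here, for *Gm15824* and *Gm17034* as for the facing genes described later. Exons of 2 of the 10 genes, *Pdha1* and *Gys1*, overlap exons of a gene on the other strand, 4 (*Tbc1d1*, *Hk2*, *Pdk2* and *Insr*) have such genes within their introns or span without exon overlap, and 4 (*Slc2a4*, *Tbc1d4*, *Pdk4* and *Pdp1*) have none. These are 8 opposite-strand genes, of which 7 were tested, and 1 passed the threshold by edgeR. It was lower in iMS*Bmal1*-/- muscle, as were 1.07% of all tested genes, and 0.693% (6 of 866) of tested genes that lie within a protein-coding gene on the opposite strand without exon overlap. Between the genotypes 3 of the 7 did not overlap in CPM (17.3% of all tested genes in either direction), all 3 lower in iMS*Bmal1*-/- muscle and all within introns of *Tbc1d1* or *Hk2*. Of these, *Gm15823* passed the filter through iMS*Bmal1*+/+ libraries, in which it is higher, and without it the number was 2 of 6.

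The gene past the threshold was *Gm15824*, a processed pseudogene of 955 bp at chr5:64190033-64190987 on the minus strand of GRCm38. It lies within intron 2 of the plus-strand transcript Tbc1d1-201, an intron of 82818 bp, at 30582 bp from the start of that transcript. *Gm15824* had 257, 309 and 456 counts in iMS*Bmal1*+/+ against 168, 123 and 105 in iMS*Bmal1*-/- libraries, several times the counts of *Tbc1d1* around it in each of the 6 libraries. All iMS*Bmal1*-/- libraries were lower than all iMS*Bmal1*+/+ libraries. It fell from 153 ± 23.2 CPM (SD, n = 3) to 65.6 ± 13.5 (SD, n = 3), a log2 fold change of -1.23 (standard error 0.16, 95% interval -1.56 to -0.90, edgeR adjusted p = 0.000135), lower in 3 of 3 iMS*Bmal1*-/- libraries. The fall was past the threshold under each of 12 other settings.

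A second processed pseudogene in the same intron, *Gm15823* (670 bp, minus strand), had 28, 29 and 31 counts in iMS*Bmal1*+/+ against 9, 9 and 17 in iMS*Bmal1*-/- libraries. These did not overlap either, and the log2 fold change was -1.21 (standard error 0.34, edgeR adjusted p = 0.0862), not past the threshold. *Gm15823* reached the level of the filter in 3 iMS*Bmal1*+/+ and 2 iMS*Bmal1*-/- libraries. The adjusted p was under 0.05 in 1 of 11 alternatives, with no filter on low counts (adjusted p = 0.0477, range over the alternatives 0.0477 to 0.319). In the first intron of Hk2-201, *Gm17034* is an antisense gene of 2229 bp of exon at chr6:82764282-82767288 on the plus strand. It had 150, 134 and 156 counts in iMS*Bmal1*+/+ against 55, 70 and 111 in iMS*Bmal1*-/- libraries, or 67.7 ± 7.80 CPM (SD, n = 3) and 39.6 ± 14.6 (SD, n = 3). *Gm17034* therefore had more counts than *Hk2* in every library, with iMS*Bmal1*-/- replicate 3 closest to the iMS*Bmal1*+/+ range. Its log2 fold change was -0.78 (standard error 0.22, edgeR adjusted p = 0.0809), not past the threshold. Without iMS*Bmal1*-/- replicate 1, *Gm17034* had a log2 fold change of -0.51 (edgeR adjusted p = 0.299). It passed under 3 of 12 alternatives, without iMS*Bmal1*-/- replicate 3 (log2 fold change -1.06, adjusted p = 0.0138), with no filter on low counts (0.00166) and with the replicate number as a block (0.00826), in a range of 0.00166 to 0.299.

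The sequence of *Gm15824* was compared with annotated transcripts by BLAST, since a processed pseudogene derives from the mRNA of another gene. The longest match of all was to Gm7557-201 (84.9% identity over 663 aligned bases), whose gene had 0 counts in every library. To a coding transcript, the longest match was Nkapd1-201, at 92.8% identity over 512 aligned bases. *Nkapd1*, chosen after its values were seen, had 294, 320 and 440 counts in iMS*Bmal1*+/+ against 448, 354 and 424 in iMS*Bmal1*-/- libraries. Its log2 fold change was 0.35 (edgeR adjusted p = 0.146), opposite in sign to that of *Gm15824*, and whether reads of the pair were counted on each other was not tested. The stretch printed is shown because its differences set the pseudogene apart from *Nkapd1*. It covers the 240 bases at chr5:64190748-64190987 (minus strand, GRCm38), and capitals mark the 24 bases without a match in Nkapd1-201, of which 20 have no counterpart there in the alignment.
Gm15824: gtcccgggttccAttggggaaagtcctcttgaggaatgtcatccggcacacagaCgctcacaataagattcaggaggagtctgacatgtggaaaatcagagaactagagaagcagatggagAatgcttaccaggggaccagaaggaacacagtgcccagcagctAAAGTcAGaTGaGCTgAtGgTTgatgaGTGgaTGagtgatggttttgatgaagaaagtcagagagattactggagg

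The remaining opposite-strand genes showed smaller differences. *Map3k15*, a kinase gene whose exons face those of *Pdha1* over 603 bp, had 6282, 5795 and 7124 counts in iMS*Bmal1*+/+ against 6805, 5302 and 5592 in iMS*Bmal1*-/- libraries. *Pdha1* held 0.381, 0.566 and 0.447% of the counts of this pair in iMS*Bmal1*+/+ against 0.351, 0.413 and 0.498% in iMS*Bmal1*-/- libraries. The log2 fold change of *Map3k15* lay within an interval of -0.22 to 0.22 (95%), and its sign turned under upper-quartile normalization. *Ruvbl2*, which encodes an ATPase of chromatin remodelling complexes, faces *Gys1* over 310 bp and had 1416, 1499 and 1787 counts in iMS*Bmal1*+/+ against 1635, 1116 and 1416 in iMS*Bmal1*-/- libraries. Its log2 fold change was -0.07 (95% interval -0.27 to 0.13), and *Gys1* held between 3.13 and 4.11% of the pair's counts. In *Pdk2*, the antisense gene *Gm11513* had 49, 63 and 70 counts in iMS*Bmal1*+/+ against 66, 61 and 59 in iMS*Bmal1*-/- libraries, which overlapped (log2 fold change 0.16, edgeR adjusted p = 0.843). In *Insr*, *Gm16180* had between 7 and 13 counts and a log2 fold change of 0.20, and *Vmn2r-ps88* had at most 3 counts in any library. For *Gm16180*, leaving out single libraries gave values from -0.037 to 0.60.

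**Figure D2:**
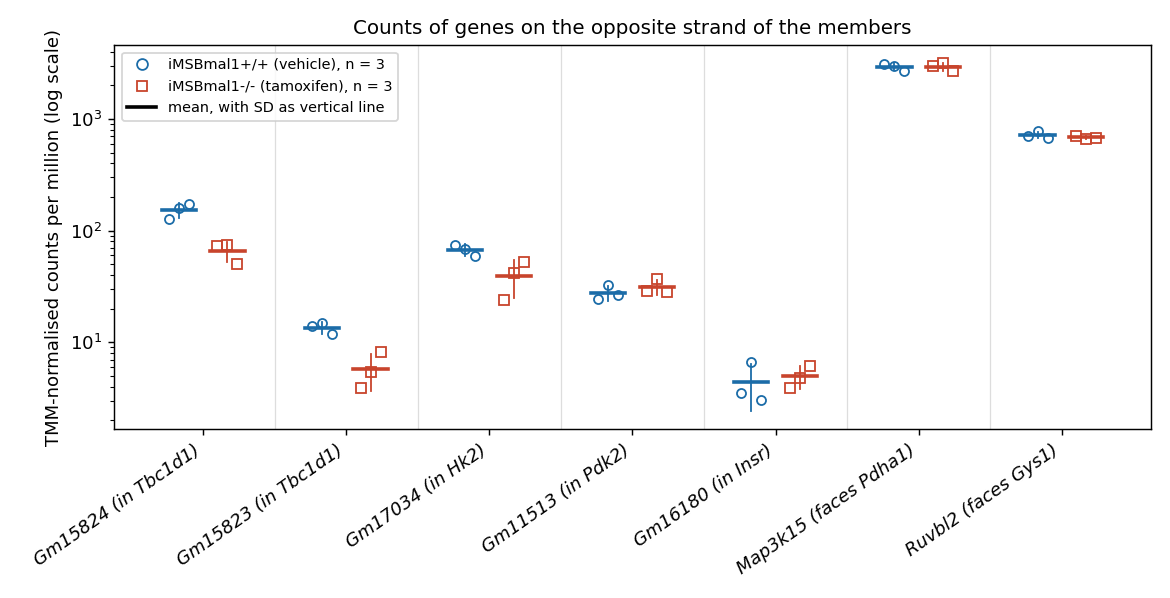
TMM-normalized CPM on a log axis for the 7 tested opposite-strand genes in each library, iMS*Bmal1*+/+ as circles and iMS*Bmal1*-/- as squares, with the mean as a bar and the SD as a vertical line. *Gm15824*, *Gm15823* and *Gm17034* have every iMS*Bmal1*-/- library below the iMS*Bmal1*+/+ libraries, and the genotypes overlap for the other 4.

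BMAL1 with its partner CLOCK binds the E-box CACGTG, so promoters of the 10 genes were searched for these letters, which read the same on both strands. RefSeq windows of 300 bases (GRCm38.p6), from 250 before to 50 after a gene start, were found for 7 of the 10 genes, and *Slc2a4*, *Pdp1* and *Insr* had no entry. Of their 9 windows 1 held the motif, that of *Pdk2*, and 7.15% of all 32851 windows hold it. A match is a description and says nothing of binding. The stretch around it is shown because it holds the only match, 126 bp before the gene start at chr11:95041462-95041527 (minus strand, GRCm38.p6), with the motif in capitals.
Pdk2: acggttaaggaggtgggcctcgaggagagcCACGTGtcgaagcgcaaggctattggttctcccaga

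Beyond the 10, a list of 94 genes of the same pathway was described by role. Of these, 36 passed the filter, and 0 were past the threshold by edgeR, with 2 at an unadjusted p under 0.05, where 11.9% of all tested genes had one. DESeq2 and limma also placed 0 past the threshold. The median log2 fold change of the 36 was 0.10, with 21 above 0 and 15 below, against a median of -0.00087 over all tested genes. The 2, both with lower values in iMS*Bmal1*-/- muscle, were *Prkag3*, the AMPK gamma subunit of fast muscle, and *Akt1*, a kinase of insulin signalling. *Prkag3* had 38, 36 and 85 counts in iMS*Bmal1*+/+ against 36, 22 and 27 in iMS*Bmal1*-/- libraries, high in iMS*Bmal1*+/+ replicate 3 (log2 fold change -0.75, edgeR adjusted p = 0.210). *Akt1* had 80, 75 and 127 counts in iMS*Bmal1*+/+ against 73, 53 and 72 in iMS*Bmal1*-/- libraries (log2 fold change -0.38, edgeR adjusted p = 0.404).

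By role, 17 genes were listed as transcription factors and coactivators, among them *Txnip*, which encodes an arrestin-family protein that binds thioredoxin and is neither. The 6 tested, *Txnip* included, had a median log2 fold change of 0.47, and 0 were past the threshold or at an unadjusted p under 0.05 by edgeR. Of these 6, *Mlxipl* and *Ppargc1b*, named after their values were seen, reached the level of the filter in all iMS*Bmal1*-/- libraries but not in all iMS*Bmal1*+/+ libraries, so that they passed through the genotype in which they are higher, and the median over the other 4 was 0.32. Among all 36, 3 genes passed through iMS*Bmal1*-/- libraries in this way and 2 through iMS*Bmal1*+/+ libraries. For transport and phosphorylation 4 of 9 were tested (median -0.08), for GLUT4 vesicle traffic 5 of 14 (median 0.04), and for insulin signalling 8 of 16 (median 0.06). For AMPK and related kinases 5 of 9 were tested (median 0.19), for glycogen storage 4 of 15 (median -0.14), and for pyruvate dehydrogenase and pyruvate import 4 of 14 (median -0.02). Of the 94 genes 34 face exons of another gene, and 31 of the 34 were below their facing gene in counts.

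Those facing genes, 37 in number, held 199712 counts over the 6 libraries, while the 94 listed genes held 11675. Of the 37, 34 were tested, and 2 fell by edgeR, where 1.23% of all tested genes that face exons of another gene were called lower (48 of 3896). The first, *Prkag2os2*, faces the AMPK gamma subunit gene *Prkag2* over 795 bp and had 67, 70 and 110 counts in iMS*Bmal1*+/+ against 49, 25 and 37 in iMS*Bmal1*-/- libraries. *Prkag2* itself had at most 1 count in any library. *Prkag2os2* fell from 37.1 ± 4.29 CPM (SD, n = 3) to 17.98 ± 3.19 (SD, n = 3), without overlap (log2 fold change -1.03, standard error 0.21, edgeR adjusted p = 0.0124). It was not past the threshold without iMS*Bmal1*+/+ replicate 3 (adjusted p = 0.0577) or iMS*Bmal1*-/- replicate 2 (adjusted p = 0.0826), in a range over 12 alternatives of 0.000718 to 0.0826.

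The other, *4930506C21Rik*, faces *Mpc1*, a subunit of the carrier that brings pyruvate into the mitochondrion, over 480 bp. It had 1767, 1937 and 2532 counts in iMS*Bmal1*+/+ against 1706, 1244 and 1277 in iMS*Bmal1*-/- libraries, while *Mpc1* had between 7 and 10. Scaled to library size, all iMS*Bmal1*-/- libraries were below all iMS*Bmal1*+/+ libraries, at 947 ± 61.9 CPM (SD, n = 3) in iMS*Bmal1*+/+ against 699 ± 77.9 (SD, n = 3) in iMS*Bmal1*-/- muscle. This fall, -0.44 as a log2 fold change (standard error 0.11, edgeR adjusted p = 0.0374), was past the threshold. It kept this without iMS*Bmal1*+/+ replicate 1 (adjusted p = 0.0438), but leaving out iMS*Bmal1*+/+ replicate 2 or 3 gave adjusted p of 0.133 and 0.0730, and leaving out iMS*Bmal1*-/- replicate 1, 2 or 3 gave 0.0801, 0.0942 and 0.231 (range over 12 alternatives 0.00500 to 0.231). Of all 34 tested facing genes 20 had a log2 fold change below 0 (median -0.08), as did 50.2% of all tested genes. Over all tested facing genes the median was -0.01. By group, 5 of 5 facing the AMPK genes were below 0 (median -0.24), 4 of 4 facing the glycogen genes (-0.25), 3 of 5 facing vesicle traffic genes (-0.27) and 5 of 7 facing transcription factors and coactivators (-0.21). The others were mostly above 0, with 1 of 4 below for pyruvate dehydrogenase and pyruvate import (median 0.15), 1 of 5 for insulin signalling (0.02) and 1 of 4 for transport and phosphorylation (0.04).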

How the data were processed

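Total RNA of TA muscle was depleted of ribosomal RNA and made into stranded libraries (KAPA kit with RiboErase), and 1 library was made per mouse. Read pairs were aligned by the authors to mm10 (HISAT2) and assigned to genes (HTSeq), and they deposited raw counts per Ensembl gene. The deposited normalized signal is each count over the DESeq2 size factor of its library. Tool versions, annotation release and strand setting are not given in the sources used here. All 6 columns were assigned to a mouse by label. Positions and strands are from GENCODE mouse release 21 (GRCm38, the build mm10 refers to), in which 147 of 52636 identifiers were not found.

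Genotypes were compared on raw counts with edgeR 4.0.16 under R 4.3.3 (TMM, filterByExpr by genotype, quasi-likelihood test, two-sided, Benjamini-Hochberg adjustment over the 6831 genes kept, threshold 0.05). The common biological coefficient of variation was 14.8%. CPM are TMM-normalized. Alternatives were DESeq2 1.42.0, limma 3.58.1 on log2(signal + 1), no filter, upper-quartile normalization, at least 10 counts in every library, blocking on the replicate number, and omitting single libraries. The tests were tried on simulated data. Sequences were compared with BLAST 2.17.0, and tables were made with Python 3.11.15.

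The 10 genes and all lists were chosen with earlier results of these data known. Named are the 10, genes overlapping their exons or within their span on the opposite strand with a mean of at least 10 counts, listed pathway genes and their facing genes past the threshold, and the most abundant marker of each cell type (fast and slow fiber, adipocyte, blood, endothelium, fibroblast, macrophage, nerve). *Gm16180* and *Vmn2r-ps88*, with lower means, are named to account for every opposite-strand gene. Others were chosen after their values were seen, among them the pairs of muscle and facing genes. No test was made over a list.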

Additional observations from a re-analysis of the deposited data

How the results depend on the processing

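Over the 12 alternatives, 0 of the 10 genes and 0 of the pathway genes passed the threshold. *Pdk4* (log2 fold change 0.96 to 1.40, adjusted p 0.0513 to 0.385), *Pdk2* (0.58 to 0.94), *Tbc1d1* (-0.80 to -0.47) and *Pdp1* (-0.59 to -0.38) kept their direction in all 12. The genotypes of these genes do not overlap in CPM, so leaving out 1 library could hardly turn their sign. The other alternatives used the same libraries, so the kept direction is no separate support. With no filter on low counts, 219 genes and 3 opposite-strand genes were past the threshold, and with the replicate number as a block 220 and 2. With the block *Gm17034* (adjusted p = 0.00826) and the fast fiber genes *Acta1*, *Ckm*, *Tnnt3*, *Tnni2* and *Tnnc2* (0.00493 to 0.0382) also passed. Without it these markers had an adjusted p of 0.0608 to 0.0939, and *Acta1* passed under 3 other alternatives and *Ckm* under 1, both without iMS*Bmal1*+/+ replicate 2 (0.0131 and 0.0135). The labels do not say what the replicate numbers mark. Deviations of libraries with the same number correlated at -0.04, -0.02 and -0.03 across genes, and those with different numbers at -0.004 to 0.035. Values this near 0 cannot show whether libraries with the same number share a litter or day. Leaving out 1 library gave 60 to 109 genes, 1 to 2 opposite-strand genes (2 without iMS*Bmal1*-/- replicate 3) and 0 to 2 genes facing the pathway list (0 without iMS*Bmal1*+/+ replicate 3 or iMS*Bmal1*-/- replicate 2). Signs turned on leaving out a library for *Slc2a4* (-0.25 to 0.23), *Hk2* (-0.44 to 0.15), *Pdha1* (-0.24 to 0.021), *Gys1* (-0.073 to 0.17), *Map3k15* (-0.062 to 0.061), *Gm16180* (-0.037 to 0.60) and *Myh1* (-0.090 to 0.14). *Gys1* was also at -0.016 with limma, and *Map3k15* at 0.0051 with a minimum of 10 counts and 0.0050 with upper-quartile normalization. The cause was not tested. Among the 10 genes, the standard error of the log2 fold change was 0.41 for *Slc2a4*, with at most 16 counts per library, and 0.16 for *Pdp1*, with at least 62. *Gm15823*, *Gm16180* and *Slc2a4* had no value with a minimum of 10 counts, nor the last 2 an adjusted p with DESeq2.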
